A study of Homo sapiens with 12 samples.

Results

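The genes of the SREBP (sterol regulatory element binding protein) programme for sterol and fatty acid synthesis were followed in 12 RNA-seq libraries from HOS cells, an established line of human osteosarcoma. The members were chosen by name: 28 gene symbols were listed, and a gene was a member where its Ensembl ID in the table of raw counts carried one of these symbols in GENCODE 29. This found 27 members among 25141 gene IDs, and CYP51A1 was not analysed here. They comprised 6 enzymes of the mevalonate pathway (HMGCS1, MVK, PMVK, MVD, IDI1 and FDPS), 10 enzymes that make squalene and turn it into cholesterol (FDFT1, SQLE, LSS, TM7SF2, MSMO1, NSDHL, HSD17B7, EBP, SC5D and DHCR7), 4 regulators and sterol transfer genes (SREBF1, SREBF2, INSIG1 and STARD4), and 7 genes of fatty acid synthesis and desaturation (ACLY, ACACA, FASN, ELOVL6, SCD, FADS1 and FADS2). All 27 passed the filter on low counts, so no member was lost before testing.

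The libraries formed 4 groups of 3. upCIN85 cells were a geneticin-resistant pool, not a clone, that carried the pRc/CMV2-Rukl plasmid, in which the CMV promoter drives full-length CIN85, an adaptor protein encoded by SH3KBP1. Mock cells were the matching pool with the empty vector. siCIN85 cells were transfected with 3 pooled siRNAs that target CIN85, and siNeg cells with a non-targeting siRNA. All groups are the same cell line, for which the methods describe DMEM with fetal bovine serum, a medium that supplies lipoproteins and free fatty acids. The study asked how the level of CIN85 changes the transcriptome of these cells. The labels number the libraries of each group but do not say whether they came from separate cultures, so p-values measure the spread between libraries, which may be technical.

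As background, SREBPs are membrane-bound transcription factors of the endoplasmic reticulum. When sterols are low, the escort protein SCAP carries them to the Golgi, where the site-1 and site-2 proteases (MBTPS1 and MBTPS2) release the active fragment, and INSIG proteins hold the complex back when sterols are plentiful. SREBF2 encodes the form best known for cholesterol synthesis, and SREBF1 encodes forms best known for fatty acid synthesis and desaturation. INSIG1 is itself an SREBP target, so its level is often read beside that of the enzymes. Malignant cells commonly depend on both arms for membrane lipids.

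SREBPs bind sterol regulatory elements and work with NF-Y, which binds CCAAT boxes, and with Sp1, which binds GC boxes. The RefSeq promoter table (GRCh38.p14) held 24 of the 27 members, and FASN, FDFT1 and SQLE had no entry. The 250 bases before each start site were searched on both strands. The letters CCAAT were present for 19 of 24 members (79.2%) and for 42.3% of 9406 tested genes with a promoter entry. The letters TCACNCCAC, one form of the core of the sterol regulatory element, were present for SREBF2 alone among the members (4.17%) and for 1.23% of the tested genes. The letters GGGCGG (GC box) were present for 23 of 24 members (95.8%) and for 76.6% of the tested genes. No motif is contained in another. The 5 members without CCAAT were PMVK, SREBF1, FADS1, FADS2 and ELOVL6. A match describes letters in a window and does not show binding.

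Stretches are printed for genes on which the comparisons turn: SREBF2 holds the one match to TCACNCCAC among the members, INSIG1, HMGCS1, LSS and SCD hold CCAAT boxes, and FADS1 and ELOVL6 do not. Each runs 5′ to 3′ on the strand of its gene, from RefSeq GRCh38.p14, outside exons annotated in GENCODE 29 except that of SREBF2, which lies in an exon of the antisense gene SREBF2-AS1. Capitals mark CCAAT or its complement ATTGG and, in SREBF2, the match TCACCCCAC. Other forms of the sterol regulatory element were not searched. The FADS1 and ELOVL6 stretches lie inside the GENCODE 29 spans of these genes, before RefSeq starts. Windows before their GENCODE starts were not searched.
SREBF2 (chr22:41832962-41832991, plus strand): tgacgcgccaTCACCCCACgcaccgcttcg
INSIG1 (chr7:155297628-155297775, plus strand): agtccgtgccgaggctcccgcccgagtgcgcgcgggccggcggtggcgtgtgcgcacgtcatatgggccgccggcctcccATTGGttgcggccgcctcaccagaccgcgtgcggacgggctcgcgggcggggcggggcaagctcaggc
HMGCS1 (chr5:43313513-43313662, minus strand): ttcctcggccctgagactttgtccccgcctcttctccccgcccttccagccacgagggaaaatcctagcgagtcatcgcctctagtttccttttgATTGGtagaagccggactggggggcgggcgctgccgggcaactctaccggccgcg
LSS (chr21:46228825-46229024, minus strand): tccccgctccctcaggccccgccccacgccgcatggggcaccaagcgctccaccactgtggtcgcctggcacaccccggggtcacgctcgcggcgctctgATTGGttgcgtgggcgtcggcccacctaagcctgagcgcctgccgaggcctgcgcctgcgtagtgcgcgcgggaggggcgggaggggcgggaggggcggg
SCD (chr10:100346983-100347123, plus strand): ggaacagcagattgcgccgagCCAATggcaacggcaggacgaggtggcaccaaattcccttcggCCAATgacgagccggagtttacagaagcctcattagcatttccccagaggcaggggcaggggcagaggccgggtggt
FADS1 (chr11:61817198-61817253, minus strand): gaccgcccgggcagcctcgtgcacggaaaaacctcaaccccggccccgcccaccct
ELOVL6 (chr4:110198677-110198841, minus strand): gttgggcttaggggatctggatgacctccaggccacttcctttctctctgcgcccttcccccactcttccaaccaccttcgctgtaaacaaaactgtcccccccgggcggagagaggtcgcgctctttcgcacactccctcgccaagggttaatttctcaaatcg

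Total counts ranged from 3540641 to 6049458 per library, with the siRNA libraries at or below 4174860 and the others at or above 5334731. SH3KBP1 checked the labels in the knockdown: it stood at 85.5, 87.2 and 82.6 CPM (counts scaled to a common library size with TMM factors) in siNeg and at 3.88, 8.96 and 9.77 CPM in siCIN85 (log2FC = −3.51, SE = 0.21, adjusted p = 5.09e-08, edgeR). In the overexpression it did not separate the groups, at 76.6, 82.8 and 73.0 CPM in Mock and 71.0, 90.0 and 82.8 CPM in upCIN85 (log2FC = 0.07, adjusted p = 0.887). Whether the 3′ end reads can see the plasmid transcript is not given in the sources used here, so this row cannot check the upCIN85 label. The study itself measured CIN85 protein in the resistant pools by western blot and describes the full-length form as overexpressed in upCIN85. Of the 6 osteoblast lineage markers measured, COL1A1 (337 to 1243 CPM), SPARC (354 to 779 CPM), COL1A2 (18.8 to 212 CPM) and RUNX2 (7.23 to 38.8 CPM) were detected in every library, ALPL reached at most 3.76 CPM, and IBSP was at 0 in 11 libraries. The 3 leukocyte markers lay between 0 and 2.02 CPM, with PTPRC and CD3E each at 0 in 11 libraries and the other above 0 in every library. The 3 endothelial markers lay between 0 and 6.12 CPM, with VWF at 0 in 8 libraries and CDH5 above 0 in every library (0.578 to 6.12 CPM). The epithelial genes EPCAM (24.6 to 61.2 CPM) and CDH1 (12.8 to 34.2 CPM) were detected in every library.

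The members moved together between libraries of the same group, and most widely in Mock and upCIN85. Of the 27 members, 22 were highest in Mock 1 among the Mock libraries, 26 were highest in upCIN85 1 among the upCIN85 libraries, and 21 were lowest in upCIN85 2. The same counts over the 12542 genes tested were 4436, 3859 and 4583. The median SD of log2 CPM over the 3 libraries was 0.252 in Mock and 0.444 in upCIN85 for the members, against 0.154 and 0.183 for the 11021 genes whose level lay in the members' range. In the siRNA libraries the spread of the members was near that of these genes (0.195 against 0.174 in siNeg, 0.155 against 0.194 in siCIN85). The spread in upCIN85 was widest for INSIG1, which encodes the retention protein, at 99.5, 28.4 and 59.2 CPM. HMGCS1, the cytosolic HMG-CoA synthase, was at 678, 334 and 384 CPM in the same libraries, and SCD, the stearoyl-CoA desaturase, at 939.8, 454 and 658 CPM. In each case upCIN85 1 stood far above its 2 companions.

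**Figure D1:**
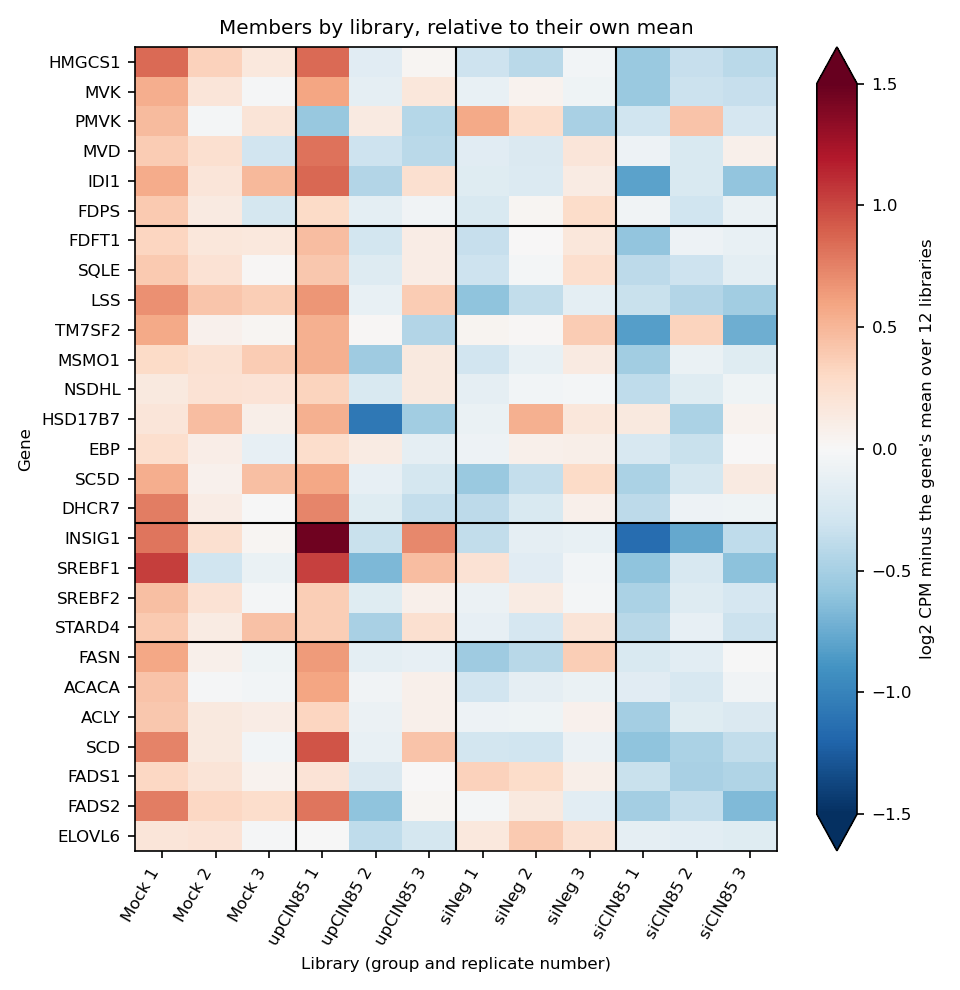
Colour gives log2 CPM of each of the 27 members (rows, in 4 blocks by role) minus that gene's mean over 12 libraries (columns, in 4 groups). The columns Mock 1 and upCIN85 1 are red in almost every row, and the siCIN85 columns are mostly blue.

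The summed CPM of the sterol and fatty acid arms followed each other, though not every gene did. In siNeg, 13 of 16 sterol enzymes but 4 of 7 fatty acid genes were highest in siNeg 3. The CPM of the 16 sterol synthesis enzymes summed to 2212, 1786 and 1743 in the Mock libraries, to 2340, 1313 and 1590 in those of upCIN85, to 1263, 1393 and 1662 in those of siNeg, and to 1095, 1319 and 1334 in those of siCIN85. The CPM of the 7 fatty acid genes summed to 2088, 1552 and 1427 in the Mock libraries, to 2196, 1275 and 1574 in those of upCIN85, to 1255, 1280 and 1481 in those of siNeg, and to 1043, 1137 and 1183 in those of siCIN85. The 2 sums were highest in the same library, upCIN85 1, and lowest in the same library, siCIN85 1. Their ratio, read between libraries only, stayed between 1.01 and 1.22, with means (± SD, n = 3) of 1.14 ± 0.081 for Mock, 1.035 ± 0.028 for upCIN85, 1.07 ± 0.060 for siNeg and 1.11 ± 0.057 for siCIN85. The fatty acid sums of siCIN85 all lay below those of siNeg, whereas the sterol sums of these groups overlapped.

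**Figure D2:**
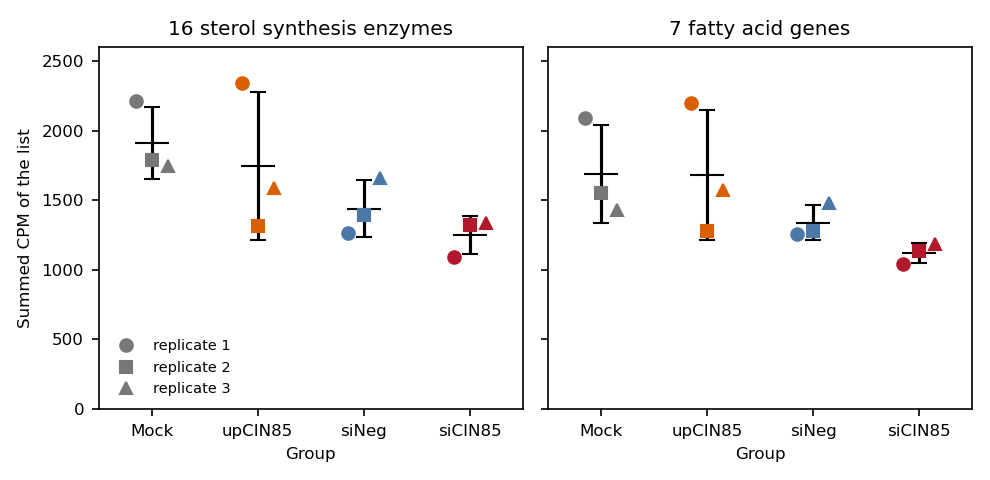
Summed CPM (y axis, from 0) of the 16 sterol synthesis enzymes (left) and the 7 fatty acid genes (right) in each library, with the mean (horizontal bar) and SD (error bars) of 3 libraries per group and a marker shape for each replicate number. In both panels replicate 1 of Mock and of upCIN85 stands above the rest of its group, and in the right panel the siCIN85 libraries (1043 to 1183) lie below the siNeg libraries (1255 to 1481).

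Overexpression of CIN85 gave no call among the members. Between upCIN85 and Mock, 0 of 27 members passed an adjusted p of 0.05 in edgeR, against 1.23% of the 12542 genes tested, and 1 of 27 had an unadjusted p under 0.05, against 14.5%. DESeq2 also called 0, against 2.5% of the genes it tested. Fitted values were below 0 for 21 of 27 members, against 48.9% of all genes, with a median log2FC of −0.11 over the members and 0.0072 over all genes tested. The libraries of the 2 groups overlapped for all 27 members, while 20.7% of all genes had groups that did not overlap. Most changes this small cannot be told from 0 with the spread of these libraries: the 95% confidence interval of HMGCS1, for example, ran from −0.61 to 0.27.

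The 16 sterol enzymes had a median log2FC of −0.13, with 14 fitted values below 0. In the mevalonate pathway the largest value belonged to PMVK, phosphomevalonate kinase, at 15.6, 10.9 and 12.8 CPM in Mock and 7.34, 12.3 and 8.16 CPM in upCIN85 (log2FC = −0.49, SE = 0.27, adjusted p = 0.428). PMVK was also the only member with its lowest upCIN85 value in upCIN85 1. Between squalene and cholesterol it belonged to HSD17B7, a sterol ketone reductase, at 5.27, 6.45 and 4.91 CPM in Mock and 6.82, 1.96 and 3.06 CPM in upCIN85 (log2FC = −0.50, SE = 0.36, adjusted p = 0.561). HSD17B7 rests on few reads, and upCIN85 holds both its highest and its lowest value.

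As a list the 4 regulators were spread more widely than the enzymes in upCIN85. Their median SD of log2 CPM was 0.664, against 0.421 for the sterol enzymes and 0.339 for the fatty acid genes. SREBF2, at 0.28, was below both of the latter. INSIG1 was at 62.8, 42.3 and 36.7 CPM in Mock, and its upCIN85 libraries (above) held both the highest and the lowest value of the 6 (log2FC = 0.40, SE = 0.31, adjusted p = 0.594). SREBF1 was at 62.8, 24.8 and 28.4 CPM in Mock and 62.4, 19.0 and 42.3 CPM in upCIN85 (log2FC = 0.09, SE = 0.34, adjusted p = 0.930). Its replicate 1 libraries were about equal in the 2 groups and stood above every other Mock or upCIN85 library. SREBF2 was at 101.4, 85.9 and 72.3 CPM in Mock and 96.0, 65.0 and 78.03 CPM in upCIN85 (log2FC = −0.12, SE = 0.15, adjusted p = 0.771). STARD4, which carries cholesterol between membranes, had a log2FC of −0.24 (SE = 0.18).

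Of the fatty acid genes, ELOVL6, the elongase of long-chain fatty acids, came closest to a call. It was at 47.4, 48.0 and 41.4 CPM in Mock and 41.6, 31.9 and 34.7 CPM in upCIN85 (log2FC = −0.34, SE = 0.13, adjusted p = 0.216), and upCIN85 1 lay just above the lowest Mock library. The other 6 lay between −0.28 (FADS2, the delta-6 desaturase) and 0.16 (SCD), and the list's median was −0.11. These medians rest on single libraries. Without upCIN85 1 the sterol median was −0.41 and the fatty acid median −0.29, without upCIN85 2 they were 0.024 and 0.0060, and without Mock 1 they were −0.010 and −0.013. Within the same replicate number the median log2 ratio of upCIN85 over Mock was 0.0096, −0.41 and −0.055 over the members. Of the 27 members, 12, 25 and 18 were below 0, against 49.9%, 50.2% and 50.3% of all genes tested.

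Knockdown of CIN85 went with lower levels of one desaturase that passed the test and with small values below 0, none of them called, for most other members. FADS1, the delta-5 desaturase that makes arachidonic and eicosapentaenoic acid from their precursors, was at 188, 179.9 and 158 CPM in siNeg and 118, 106 and 109 CPM in siCIN85 (log2FC = −0.66, SE = 0.12, adjusted p = 0.0157, edgeR). Every siCIN85 library lay below every siNeg library. The mean was 1.58 times higher in siNeg by the fit. FADS1 was 1 of 27 members called, against 1.04% of all genes tested, and 3 of 27 had an unadjusted p under 0.05, against 15.7%. Fitted values were below 0 for 25 of 27 members, against 50.8% of all genes, with a median log2FC of −0.24 over the members and −0.0052 over all genes tested.

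FADS1 was lower in each of the same-numbered pairs, with log2 ratios of −0.67, −0.76 and −0.54. With the replicate number of the siRNA libraries as a block the adjusted p of FADS1 was 0.00515, and 3.42% of all genes were called. The log2FC of FADS1 stayed between −0.74 and −0.61 as each library was left out. Its call was lost without siNeg 1, siNeg 2, siCIN85 1 or siCIN85 3, where the adjusted p reached at most 0.0772. In these fits 0.13%, 0.0992%, 0.0691% and 0.107% of all genes were called, against 1.04% with every library. FADS1 lies at chromosome 11, 61799625 to 61829318 (GENCODE 29, GRCh38, minus strand), inside the span of FADS2 on the opposite strand. The strand setting of the counting is not given in the sources used here, so whether reads of the pair were shared is not known. Overlaps here and below compare gene spans, and their exons were not compared. FADS2 itself was at 58.0, 65.7 and 53.1 CPM in siNeg and 41.5, 46.3 and 37.2 CPM in siCIN85, with no overlap (log2FC = −0.50, SE = 0.26, adjusted p = 0.357). FADS2 also overlaps FEN1 on its own strand, and FEN1 had a log2FC of −0.07 (SE = 0.11).

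**Figure D3:**
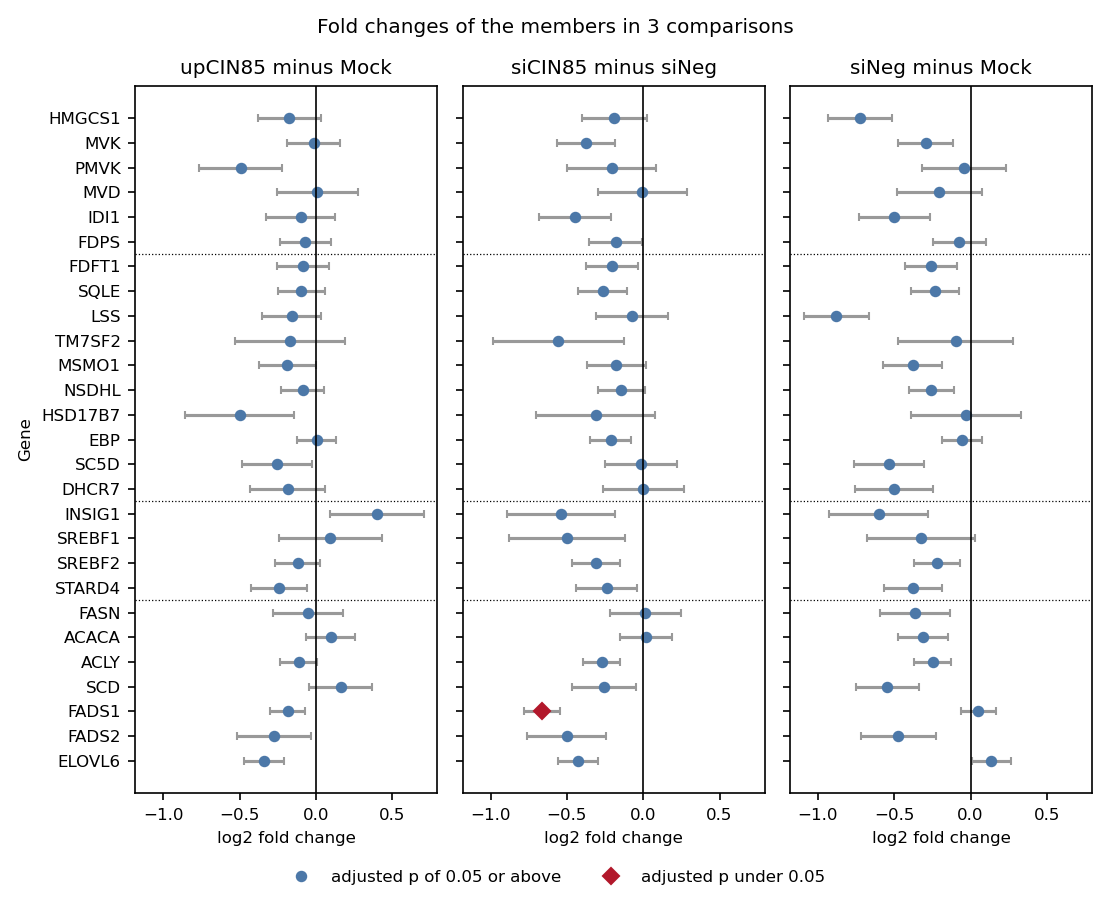
log2 fold change (x axis) of each member (y axis, dotted lines between the 4 role blocks) in 3 comparisons, with bars of 1 SE; a red diamond marks an adjusted p under 0.05 in edgeR. FADS1 in siCIN85 minus siNeg is the one red diamond, and in the middle and right panels 25 of 27 points lie left of 0.

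The other fatty acid genes split. ELOVL6 was at 46.7, 54.7 and 49.0 CPM in siNeg and 37.9, 37.3 and 36.7 CPM in siCIN85 (log2FC = −0.43, SE = 0.13, adjusted p = 0.130). ACLY, which makes cytosolic acetyl-CoA from citrate, was at 321, 323 and 352 CPM in siNeg and 237, 298 and 289.7 CPM in siCIN85 (log2FC = −0.27, SE = 0.12, adjusted p = 0.286). SCD was at 403, 396 and 459 CPM in siNeg and 321, 352 and 379 CPM in siCIN85 (log2FC = −0.26, SE = 0.21, adjusted p = 0.583). For these 3 genes no siCIN85 library reached a siNeg library, as for 10.2% of all genes tested, yet none passed the adjusted threshold. The enzymes that build the chain had fitted values near 0: fatty acid synthase, FASN, had a log2FC of 0.01 (95% confidence interval −0.48 to 0.50) and acetyl-CoA carboxylase, ACACA, of 0.02 (−0.34 to 0.38). The interval of FASN includes changes as large as that of ELOVL6, and the interval of ACACA includes changes as large as that of SCD but not that of ELOVL6.

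All 4 regulators had fitted values below 0, with a median of −0.40. For 3 of them the groups did not overlap, against 10.2% of all genes lower with no overlap. INSIG1 was at 27.7, 32.5 and 33.1 CPM in siNeg and 16.02, 20.8 and 27.5 CPM in siCIN85 (log2FC = −0.54, SE = 0.35, adjusted p = 0.479). SREBF1 was at 35.5, 27.1 and 29.7 CPM in siNeg and 19.9, 25.7 and 19.8 CPM in siCIN85 (log2FC = −0.50, SE = 0.38, adjusted p = 0.543). SREBF2 was at 69.7, 80.4 and 72.7 CPM in siNeg and 53.1, 64.8 and 62.1 CPM in siCIN85 (log2FC = −0.31, SE = 0.16, adjusted p = 0.345). In each of the 3 the highest siCIN85 library lay close under the lowest siNeg library, and none passed the test. SREBF1 overlaps RAI1 on the opposite strand, which had more counts than SREBF1 over the 12 libraries (6594 against 1977).

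**Figure D4:**
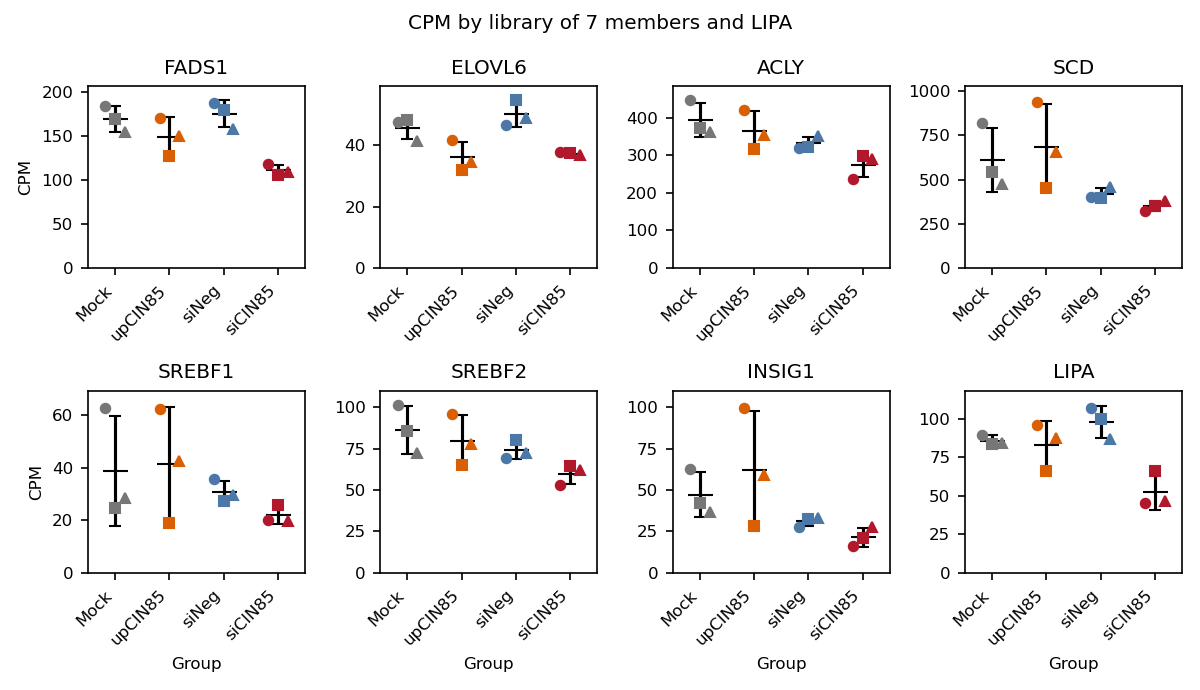
CPM (y axes, each from 0) by library for 7 members and LIPA in the 4 groups, with the mean (horizontal bar) and SD (error bars) of 3 libraries; circles, squares and triangles are replicates 1, 2 and 3. FADS1 falls from 158 to 188 CPM in siNeg to 106 to 118 CPM in siCIN85, and SREBF1 and INSIG1 show the high replicate 1 libraries of Mock and upCIN85.

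The 16 sterol enzymes all had fitted values below 0 in siCIN85 (median −0.20), but 0 were called. For 2 of them (12.5%) the groups did not overlap, near the 10.2% of all genes that were lower with no overlap. IDI1, the isopentenyl diphosphate isomerase, had the largest value of the mevalonate enzymes, at 113, 111 and 139.8 CPM in siNeg and 73.3, 109 and 85.0 CPM in siCIN85 (log2FC = −0.45, SE = 0.24, adjusted p = 0.372). The other enzyme without overlap was MVK, mevalonate kinase (log2FC = −0.37, SE = 0.19, adjusted p = 0.356), which overlaps MMAB on the opposite strand. TM7SF2, a sterol reductase, had the largest value between squalene and cholesterol, at 3.00, 2.93 and 3.91 CPM in siNeg and 1.46, 3.76 and 1.58 CPM in siCIN85 (log2FC = −0.56, SE = 0.43, adjusted p = 0.556). It had 178 counts over all 12 libraries and overlaps VPS51 on the same strand, which had 2595.

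The remaining sterol enzymes had fitted log2FC between −0.26 and 0.01 in upCIN85 and between −0.27 and −0.0011 in siCIN85 over MVD, FDPS, FDFT1, SQLE, LSS, MSMO1, NSDHL, EBP, SC5D, DHCR7 and HMGCS1. The values in upCIN85 depended on upCIN85 1, without which they ran from −0.61 (DHCR7) to −0.09 (EBP). FDFT1, which makes squalene, was at 249.6, 319 and 358 CPM in siNeg and 211, 301 and 293 CPM in siCIN85 (log2FC = −0.20, SE = 0.17). SQLE, the squalene epoxidase, was at 110.5, 135 and 164 CPM in siNeg and 105, 110.5 and 125 CPM in siCIN85 (log2FC = −0.27, SE = 0.16), the largest value of these 11. DHCR7, which makes cholesterol in the last step, was at 31.2, 34.9 and 43.5 CPM in siNeg and 31.3, 39.0 and 39.3 CPM in siCIN85 (log2FC = −0.0011, SE = 0.27). The siNeg and siCIN85 libraries overlapped for all 11, and 0 of them passed the test.

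Counted over the whole set, 10 of 27 members (37.0%) were lower in siCIN85 with no overlap, against 10.2% of all genes tested, and 0 were higher with no overlap (20.2% of all genes did not overlap in either direction). They were 5 of the 7 fatty acid genes (ACLY, SCD, FADS1, FADS2 and ELOVL6), 3 of the 4 regulators and 2 of the 16 sterol enzymes. In the same-numbered pairs, 14 of 27 members (51.9%) were lower in all 3, against 22.8% of all genes; they included 5 of 7 fatty acid genes (71.4%) and 6 of 16 sterol enzymes (37.5%). The median log2 ratio over the members was −0.25, −0.10 and −0.29 in pairs 1, 2 and 3. The members share regulators and libraries, so these counts describe the set and are not independent observations.

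The 2 control groups differ in experiment, transfection and selection at once, and most members had lower fitted values in siNeg than in Mock. Between siNeg and Mock, 25 of 27 members had fitted values below 0, including all 16 sterol enzymes, against 49.5% of all genes, with a median log2FC of −0.29 over the members and 0.0027 over all genes tested. In edgeR 0 of 27 were called, against 0.526% of all genes, and 5 had an unadjusted p under 0.05, against 12.4%. DESeq2 called 1 of 27, against 1.66% of the genes it tested. The number of members lower with no overlap was 10 of 27, against 9.94% of all genes (19.4% in either direction). Experiment, transfection and selection cannot be told apart here, and siNeg is the same control that siCIN85 was set against. Named after their values were seen, LSS, which closes the sterol ring system, was at 20.7, 17.1 and 16.5 CPM in Mock and 8.25, 9.77 and 11.5 CPM in siNeg (log2FC = −0.88, SE = 0.21, adjusted p = 0.0774). With the siRNA replicate numbers as a block the adjusted p of LSS was 0.0456, and 1.72% of all genes were called. That block pairs no siNeg library with a Mock library. Its p-values for siNeg minus Mock therefore leave out the spread between replicate numbers of the siRNA libraries. HMGCS1 was at 678, 477 and 419.8 CPM in Mock and 302, 284 and 366 CPM in siNeg (log2FC = −0.73, SE = 0.21, adjusted p = 0.150).

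SCD followed them, with a log2FC of −0.54 (SE = 0.21, adjusted p = 0.276), whereas FADS1 (0.05, SE = 0.12) and ELOVL6 (0.14, SE = 0.13) were the 2 members with values above 0. The number of calls in this comparison depended on the fit. It was 7 where genes of low count were kept (1.5% of all genes called). It was also 7 with replicate numbers blocked in the overexpression as well as the knockdown (4.69%), a block with the same limit in this comparison. The latter called HMGCS1, IDI1, LSS, SC5D, DHCR7, FASN and SCD, all lower in siNeg. Replicate 1 of Mock was among the highest libraries for most members, and without it the sterol median was −0.17 and the fatty acid median −0.15, in place of −0.26 and −0.31. With fewer cells of a type and less RNA per cell not to be told apart in bulk RNA, all these values give shares of the library's counts only.

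The effect of overexpression minus that of knockdown was tested directly. In edgeR 0 of 27 members passed, against 0.973% of all genes tested, and 1 had an unadjusted p under 0.05, against 14.5%. DESeq2 called 0. Values were below 0 for 8 members, against 48.9% of all genes. The member past the unadjusted threshold was FADS1, whose log2FC was −0.18 (SE = 0.12) in upCIN85 and −0.66 in siCIN85, a difference of 0.48 (SE = 0.17, adjusted p = 0.185). INSIG1 had the largest difference, 0.94 (SE = 0.47, adjusted p = 0.369), from 0.40 in upCIN85 and −0.54 in siCIN85. ELOVL6 was lower in both experiments, by 0.34 and 0.43 on the log2 scale, and its difference was 0.09 (95% confidence interval −0.30 to 0.48). The medians of the difference were 0.036 over the sterol enzymes, 0.16 over the fatty acid genes and 0.010 over all genes tested.

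Of 7 listed genes for sterol uptake, transport and storage, 6 had fitted values above 0 in siCIN85 and 1 below, against 50.8% of all genes below 0, and the median log2FC was 0.22. The groups did not overlap for 4 of the 7, 3 higher and 1 lower, against 20.2% of all genes. The gene below 0, LIPA, which encodes the lysosomal acid lipase that frees cholesterol and fatty acids from lipoprotein esters, fell from 107.0, 100.2 and 87.0 CPM in siNeg to 45.4, 66.2 and 46.5 CPM in siCIN85 (log2FC = −0.90, SE = 0.16, adjusted p = 0.0144, edgeR), a 1.87-fold lower level with no overlap. It was the 1 call among the 26 pathway genes tested outside the members, against 1.04% of all genes. The call was lost without siNeg 1, siNeg 2, siCIN85 1 or siCIN85 3, where the adjusted p reached at most 0.118 and 0.0691% to 0.13% of all genes were called. In upCIN85 LIPA had a log2FC of −0.05 (SE = 0.15), and the difference of the effects was 0.85 (SE = 0.22, adjusted p = 0.0734, and 0.0273 with the siRNA replicate block). That block raised the share of all genes called for the difference from 0.973% to 2.93%.

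LIPA spans chromosome 10, 89213569 to 89414557 (minus strand), and in GENCODE 29 this span holds the interferon-stimulated genes IFIT1, IFIT2 and IFIT3 on the opposite strand. IFIT1 had a log2FC of −2.25 (SE = 0.76, adjusted p = 0.154) and IFIT3 of −0.99 (SE = 0.60, adjusted p = 0.435) in siCIN85. Their part in the value of LIPA was not tested. The overlap is one of gene spans, exons were not compared and the strand setting is not given. Whether reads were shared is therefore not known. Over the 12 libraries LIPA had 4685 counts, IFIT3 2606 and IFIT1 834.

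NPC2, the partner of NPC1 in moving cholesterol out of lysosomes, stood the other way, at 71.5, 102.1 and 96.4 CPM in siNeg and 118, 130.4 and 143 CPM in siCIN85 (log2FC = 0.54, SE = 0.14, adjusted p = 0.0755). With the replicate number of the siRNA libraries as a block its adjusted p was 0.0212. That block raised the share of all genes called from 1.04% to 3.42%. ELOVL5, an elongase of polyunsaturated fatty acids, was at 346, 322 and 305 CPM in siNeg and 225, 289 and 229 CPM in siCIN85 (log2FC = −0.39, SE = 0.11, adjusted p = 0.0993), and at 0.0453 with that block. NPC2 and ELOVL5 were named after their values were seen. Both sets of libraries were without overlap. NPC2 overlaps ISCA2 on the opposite strand, which had 2892 counts against 5834 and a log2FC of −0.24 (SE = 0.17). VLDLR, a lipoprotein receptor also named afterwards, had a log2FC of 0.48 (SE = 0.20, adjusted p = 0.267).

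The remaining lists gave no call in either experiment. The 4 other sterol synthesis genes were below 0 in siCIN85, from −0.15 to −0.19, the largest being LBR, a sterol reductase of the nuclear envelope (SE = 0.09, adjusted p = 0.314). In upCIN85 the largest of that list was TMEM97 (log2FC = −0.28, SE = 0.18). Of the SREBP processing genes, SCAP, the escort of SREBPs, was at 54.2, 55.0 and 52.1 CPM in siNeg and 67.2, 66.2 and 67.9 CPM in siCIN85 (log2FC = 0.32, SE = 0.14, adjusted p = 0.272), the opposite direction to the fitted values of SREBF1, SREBF2 and INSIG1. MBTPS1 had a log2FC of 0.19 (SE = 0.10) in upCIN85. Of the other lipid synthesis genes, ACSS2, an acetyl-CoA synthetase, had −0.44 (SE = 0.41) in siCIN85. LPIN1, a phosphatidate phosphatase, had 0.38 (SE = 0.21) in upCIN85 and −0.35 (SE = 0.22) in siCIN85. The difference of its effects was 0.73, not called in the main fit and called in 2 of 18 alternatives. For upCIN85 minus Mock LPIN1 was called in 1 of 19 alternatives. ACACB and TECR had too few counts to test.

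In the overexpression the largest absolute log2FC of the tested members and pathway genes belonged to NR1H3, followed by NPC1. The synthesis genes HSD17B7 and PMVK, at −0.50 and −0.49, were not far below NPC1 in size. The uptake receptors SCARB1 and VLDLR were at −0.11 and 0.14. NPC1, the lysosomal cholesterol transporter, was at 15.05, 20.03 and 16.1 CPM in Mock and 13.6, 10.3 and 9.86 CPM in upCIN85 (log2FC = −0.60, SE = 0.20, adjusted p = 0.153). NR1H3, which encodes the sterol sensor LXR alpha, was at 1.32, 1.19 and 1.93 CPM in Mock and 3.85, 3.27 and 2.38 CPM in upCIN85 (log2FC = 1.08, SE = 0.36, adjusted p = 0.153) and had a log2FC of 0.45 (SE = 0.39) in siCIN85. Both had groups that did not overlap in upCIN85 against Mock, as did 4 of the 26 pathway genes and 20.7% of all genes, and neither passed the adjusted threshold. NR1H3 rests on 141 counts over 12 libraries and overlaps ACP2 on the opposite strand, which had 2828. NPC1, with 981 counts, overlaps RMC1 on the opposite strand, which had 875 and a log2FC of −0.30 (SE = 0.19) in upCIN85. With the strand setting unknown and exons not compared, whether reads of either pair were shared is not known. The LXR targets ABCA1 and ABCG1, which export cholesterol, were below the filter, at no more than 2.18 and 0.752 CPM.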

How the data were processed

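Libraries were made from total RNA with a 3′ end kit (QuantSeq 3′ FWD with the UMI second strand module) and, according to the study's methods, sequenced as single-end reads. The deposited values are raw read counts per Ensembl gene, made by the authors with tools that the submitters' processing notes list as FastQC, cutadapt 4.3, STAR 2.7.3a, Picard 2.25.6, MultiQC 1.10.1 and featureCounts (Subread 2.0) on GRCh38; the annotation, the strand setting and any collapsing of identifiers are not given in the sources used here. Without collapsing, reads are not independent molecules. 95 of 25141 IDs had no match in GENCODE 29.

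edgeR 4.0.16 (R 4.3.3) was run on the deposited counts of all 12 libraries: filterByExpr (minimum count 10, minimum total 15) kept 12542 genes, TMM factors were applied, and a quasi-likelihood fit with 1 mean per group (8 residual degrees of freedom) gave 4 contrasts. P-values were two-sided and Benjamini-Hochberg adjusted over all 12542 genes, with a threshold of 0.05. SEs were derived from the log2FC and the F statistic. CPM values are TMM-normalized, and log2 CPM uses a prior count of 2. Replicate numbers were taken from the labels, which do not state that equal numbers are pairs, and the main fit held no replicate block. Same-numbered deviations from the group means correlated over genes at 0.353, 0.269 and 0.446 in siNeg and siCIN85. In Mock and upCIN85 these correlations were 0.326, 0.227 and 0.0989. Different-numbered libraries gave −0.287 to −0.0589 in siNeg and siCIN85, and −0.298 to 0.0303 in Mock and upCIN85. No library was a duplicate of another. The scripts were tested on simulated data.

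Alternatives were RLE factors, no filter, at least 10 counts in every library, a fit of 6 libraries, the replicate block, DESeq2 1.42.0 and each library left out. Members and gene lists were chosen with earlier results of these data known. Values in every library were given by rule for members with an unadjusted p under 0.05 in either experiment or in the difference of effects, for the largest absolute log2FC of each member list, and for SREBF1, SREBF2 and INSIG1; genes of other pathway lists were named when called or largest in their list. Values by library of SCD, FADS2, HMGCS1, LSS, FDFT1, SQLE and DHCR7 were added after they were seen. Some genes of the pathway are not reported here. Promoter sequences are from RefSeq.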

Additional observations from a re-analysis of the deposited data

Results flagged for a closer look

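MBTPS1, which encodes the site-1 protease that cleaves SREBPs, was noted because its libraries moved in opposite directions without overlap in the 2 experiments. It was at 67.0, 67.9 and 64.5 CPM in Mock and 75.2, 73.7 and 78.7 CPM in upCIN85, and at 72.5, 78.7 and 71.9 CPM in siNeg and 68.7, 70.3 and 69.7 CPM in siCIN85. The difference of the 2 effects was 0.287 on the log2 scale (SE = 0.14, adjusted p = 0.369, edgeR), so it did not pass the test. Of all genes, 20.7% and 20.2% had groups that did not overlap in either direction, each comparison taken alone. The share without overlap in both, in opposite directions, was not counted. MBTPS1 was also higher without overlap in siNeg than in Mock (log2FC = 0.16, SE = 0.10), where 19.4% of all genes did not overlap. Every siCIN85 library lay above every Mock library.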

How the results depend on the processing

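The number of members called depended on the fit. For siCIN85 minus siNeg it was 1, rose to 3 with no filter on low counts (FADS1, IDI1 and FADS2) and to 3 with the replicate block in both experiments (FADS1, FADS2 and ELOVL6), and ranged from 0 to 1 as each library was left out. For siNeg minus Mock it was 0, became 7 with no filter, 7 with the replicate block in both experiments, 1 with the replicate block restricted to the siRNA libraries and 1 with DESeq2 (LSS in both), and ranged from 0 to 1 with a library left out. For the difference of the 2 effects it was 0 and became 1 with no filter (INSIG1, adjusted p = 0.00532) and 1 with the block in both experiments (FADS1, adjusted p = 0.0346). For upCIN85 minus Mock it was 0 under every alternative run. Neither block pairs siNeg with Mock libraries, so their p-values for siNeg minus Mock leave out spread between the blocked replicate numbers. The block in both experiments assumes that same-numbered libraries of Mock and upCIN85 are pairs, which the labels do not state. It raised the calls over all genes from 1.04% to 7.72% in siCIN85 minus siNeg and from 0.526% to 4.69% in siNeg minus Mock. In the difference of the 2 effects it raised them from 0.973% to 7.32%. The no-filter fit tested 25141 genes and called 2.45% in siCIN85 minus siNeg, 1.5% in siNeg minus Mock and 2.2% in the difference. DESeq2 called 1.66% of the genes it tested in siNeg minus Mock. The block restricted to the siRNA libraries changed no other member's call. Over all genes it called 3.42% in siCIN85 minus siNeg, 1.72% in siNeg minus Mock and 2.93% in the difference. The cause of these shifts was not tested.

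The sterol median in upCIN85 minus Mock ranged from −0.41 to 0.024 as libraries were left out. Signs were not stable there: 35 of 324 member values changed sign with a library left out, in 20 genes, against 14 of 324, in 7 genes, for siCIN85 minus siNeg. The 3 libraries per group, the wide spread in upCIN85 and low counts (TM7SF2, HSD17B7) limited what could be seen.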
